A study of Homo sapiens with 8 samples.

Results

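The keratin gene clusters are the neighbouring blocks of genes that code for the intermediate filament proteins of epithelial cells. Accessible chromatin was examined in both clusters in the H1650 line, an established human line labelled as non-small cell lung cancer. The members were 10 keratin genes. KRT80, KRT7, KRT5, KRT8 and KRT18 lie in a window of chromosome 12 from 52.54 to 53.37 Mb (hg19), which holds the type II keratins and KRT18. KRT15, KRT19, KRT14, KRT16 and KRT17 lie in a window of chromosome 17 from 38.83 to 39.8 Mb, which holds the other type I keratins. Peaks of 8 deposited lists were merged wherever they overlapped or touched, and every merged region that overlapped a window was kept. That gave 37 regions of 46665 in all, with 23 in the type II window and 14 in the type I window. A region was called listed in a library if any peak of that library overlapped it.

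The assay was ATAC-seq, in which a transposase inserts sequencing adapters into accessible DNA, so that a pile of tags marks an accessible site. The siMena11a cells were transfected with a mix of siRNAs matching exon 11a of ENAH, the gene of the actin regulator hMENA. The siMena cells received a pool of siRNAs against ENAH as a whole, and the siControl cells a pool without a target; each of these 3 groups was given siRNA at 20 nmol/L with a lipid reagent. The untreated cells are labelled only as such. Each group had 2 libraries, all of the same line, and the labels do not say whether they came from separate cultures; the spread between them may be technical.

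Keratin filaments are built from pairs of a type I and a type II chain. Simple epithelia, including that of the lung alveoli, mainly use KRT8 with KRT18, joined by KRT7 and KRT19. Basal cells of stratified epithelia use KRT5 with KRT14, and often KRT15. KRT16 and KRT17 are the stress keratins, which wounded or hyperproliferative epidermis makes, and are counted here with the basal keratins. KRT80 is a type II keratin found in many epithelia and is given apart. KRT18 is a type I gene that sits next to KRT8, at the end of the type II cluster.

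RefSeq promoters, each a window of 300 bases around a gene's start in GRCh38.p14, were matched for 2 of the 10 members. They are shown because one belongs to KRT5, the basal type II keratin with no region listed near it, and the other to KRT8, the simple keratin with the most widely listed 5′ region. Both genes lie on the minus strand, KRT5 with its promoter at chr12:52520345-52520644 and KRT8 at chr12:52926420-52926719. Capitals mark CANNTG, the E-box read by basic helix-loop-helix and zinc-finger factors, and GGAATG, the motif of TEAD factors.
KRT5: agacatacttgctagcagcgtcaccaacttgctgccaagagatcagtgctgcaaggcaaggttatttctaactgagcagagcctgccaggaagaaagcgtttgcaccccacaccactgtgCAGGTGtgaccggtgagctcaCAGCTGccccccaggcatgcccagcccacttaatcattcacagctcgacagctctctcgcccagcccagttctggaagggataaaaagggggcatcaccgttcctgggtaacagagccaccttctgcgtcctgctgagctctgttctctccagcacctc
KRT8: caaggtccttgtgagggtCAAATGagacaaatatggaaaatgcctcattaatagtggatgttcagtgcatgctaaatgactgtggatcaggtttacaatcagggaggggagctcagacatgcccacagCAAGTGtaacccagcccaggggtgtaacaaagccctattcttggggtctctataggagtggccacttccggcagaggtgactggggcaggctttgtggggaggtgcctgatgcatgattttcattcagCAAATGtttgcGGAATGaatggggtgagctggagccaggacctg
Both strands were searched for each motif, and no 2 marked matches overlap. KRT5 held 2 E-boxes, and KRT8 held 3 E-boxes and 1 TEAD motif. Of 35116 RefSeq promoters of the same length, 68.7% held CANNTG and 14% held GGAATG. Neither promoter held the AP-1 motif TGANTCA, the SP/KLF motif GGGCGG or the TATA motif TATAAA, which 7.71%, 45% and 11.5% of all promoters held. GC content was 56.3% for KRT5 and 50.7% for KRT8. The KRT8 sequence belongs to a longer transcript than the one whose start was listed here. Its start lies 29.5 kb from the 3′ end of the gene in GRCh38, whereas the listed KRT8 region began 7.5 kb from the approximate 3′ end in hg19. The next listed region beyond it, chr12:53321213-53321419, began 30.2 kb from that end and was listed in siMena replicate 1 alone.

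The lists differed widely in length. Replicates 1 and 2 held 35472 and 2832 peaks in siMena11a cells, 14678 and 1020 in siMena cells, 27304 and 5231 in siControl cells, and 34782 and 22424 in untreated cells. The background of a whole library, given as tags per position, was 0.881 and 2.54 in siMena11a, 0.725 and 2.88 in siMena, 0.935 and 2.27 in siControl, and 0.538 and 1.09 in untreated libraries. The replicate 2 libraries of the 3 transfected groups thus had the highest backgrounds and the shortest lists. A peak at the genome-wide background needed at least 11 to 13 tags to be listed in those 3, and 5 to 7 in the other 5. Replicate numbers are labels only and do not tie a library of one group to a library of another. As a check on the cell type, regions at the 5′ ends of the epithelial genes EPCAM, CDH1 and CLDN4 were listed in 4, 3 and 3 libraries. None was listed at the 5′ ends of the leukocyte gene PTPRC, the endothelial genes PECAM1 and CDH5 or the fibroblast genes COL1A2 and PDGFRB. Elsewhere in or within 5 kb of these 5 genes, 4 had a listed region.

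Keratin regions were listed in 5 of the 8 libraries. The lists held 25 in siMena11a replicate 1 (15 type II and 10 type I), 6 in siMena replicate 1 (3 and 3), 15 in siControl replicate 1 (8 and 7), 27 in untreated replicate 1 (17 and 10) and 12 in untreated replicate 2 (7 and 5). Replicate 2 of siMena11a, siMena and siControl listed 0. As a share of all regions of a library, keratin regions made up 0.0718% in siMena11a replicate 1 (95% exact Clopper-Pearson interval 0.0465 to 0.106), 0.0425% in siMena replicate 1 (0.0156 to 0.0925) and 0.0567% in siControl replicate 1 (0.0317 to 0.0935). The share was 0.0799% in untreated replicate 1 (0.0526 to 0.116) and 0.0554% in untreated replicate 2 (0.0286 to 0.0968). These 5 intervals overlapped. At the share of replicate 1, the replicate 2 list would have held 1.98 keratin regions in siMena11a, 0.424 in siMena and 2.88 in siControl cells. The counts of 0 allowed shares up to 0.133%, 0.369% and 0.0727% by the same interval, which covers counting error over regions only. Those limits lay above the replicate 1 shares, so a loss of keratin regions in these 3 libraries was not detectable with lists this short.

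The listed regions crowded at the ends of the type II cluster. Within its 830.0 kb the window held 27.7 regions per Mb, against 16.4 per Mb over chromosome 12. The type I window, 970.0 kb long, held 14.4 per Mb, against 20.1 per Mb over chromosome 17. Dividing the windows into blocks, a division chosen after the values were seen, put 10 regions in the 140.0 kb around KRT80 and KRT7 (7.14 per 100 kb) and 11 in the 127.0 kb around KRT8 and KRT18 (8.66 per 100 kb). The 563.0 kb between them, from KRT81 to KRT78, held 2 regions (0.355 per 100 kb). A stretch of 344.5 kb without a listed region spanned 13 keratin genes, among them KRT5 and the stress keratins KRT6A, KRT6B and KRT6C, and ran over chr12:52721647-53066165. In the type I window, the 143.0 kb from KRT13 to KRT17 held 7 regions (4.9 per 100 kb) and the 155.0 kb of hair keratins held 4 (2.58 per 100 kb). The 313.0 kb from KRT24 to KRT40 held 2 regions and the 359.0 kb of keratin-associated protein genes held 1. KRT6A, KRT6B and KRT6C are near-identical copies, and KRT14, KRT16 and KRT17 have pseudogene copies. The handling of reads that match several places is not stated in the sources at hand. A missing peak at these genes, or at any other keratin gene with such copies, simple keratins included, is therefore uncertain.

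**Figure D1:**
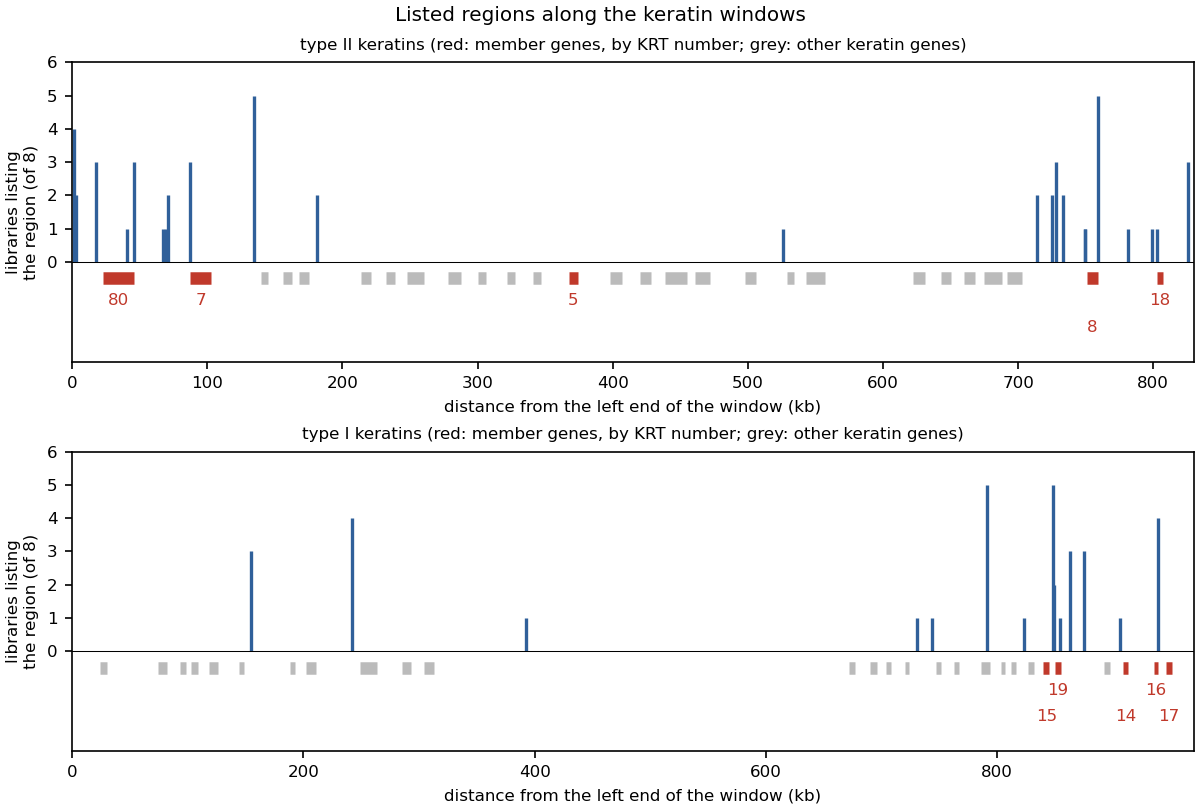
Number of libraries that listed each of the 37 keratin regions (vertical axis, 0 to 8) against its distance from the start of the type II or the type I window in kb (horizontal axis); bars under the axis are the approximate gene spans. The type II regions stand at the 2 ends of the window, 10 on the KRT80 and KRT7 side and 11 on the KRT8 and KRT18 side, with 2 in between.

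By place, 14 of the 37 regions lay within 5 kb of a member gene, 5 lay within 5 kb of another keratin gene only, and 18 were near no keratin gene. Of the members, 8 of 10 had a region within 5 kb and 6 of 10 had one within 1 kb of the 5′ end, namely KRT80, KRT7, KRT8, KRT18, KRT19 and KRT16. Of the other 44 keratin genes, 5 had a region within 5 kb and 0 had one at the 5′ end. The 4 simple keratin genes, over 73 kb with margins, had 9 regions, and each of the 4 had one at its 5′ end. Without siMena11a replicate 1, which alone listed those of KRT18 and KRT19, 2 of the 4 did. The 5 basal keratin genes, over 70 kb, had 4 regions at 3 genes, and only KRT16 had one at the 5′ end. A region and its neighbour between KRT15 and KRT19 lay within 5 kb of both genes, so these 2 are counted in both classes. Without the 5 kb margin the simple class kept 3 regions and the basal class 0. The gene spans are approximate, to 1 kb. The 5′ regions of KRT18 and KRT16 lay outside these spans though within 1 kb of the 5′ end. The counts without a margin therefore depend on the approximation and are not a measure of a difference between the classes. The members were named with earlier results of these data known, and no test of one class against the other was made.

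KRT8 had the most widely listed 5′ region of the members. At chr12:53298511-53299126 it reached a fold of 5.37 in siMena11a replicate 1, 4.85 in siMena replicate 1, 6.67 in siControl replicate 1, and 5.81 and 4.55 in untreated replicates 1 and 2. Fold is the authors' value for a peak, the tags at its summit over those of the local background, with 1 added to each. The pileup behind it was 28 tags in siMena11a replicate 1 (95% Poisson interval 18.6 to 40.5), 15 in siMena replicate 1 (8.4 to 24.7), 27 in siControl replicate 1 (17.8 to 39.3), and 19 (11.4 to 29.7) and 14 (7.65 to 23.5) in the untreated libraries. Over the genome-wide background of each library, the pileup was 31.8 in siMena11a replicate 1, 20.7 in siMena replicate 1, 28.9 in siControl replicate 1, and 35.3 and 12.9 in untreated replicates 1 and 2. The untreated libraries thus held both the highest and the lowest scaled value. The summits lay within 182 bp of each other. A further region near the KRT8 3′ end, chr12:53289221-53289483, was listed at a fold of 4.34 in siMena11a replicate 1 alone, and chr12:53289658-53290121 at 4.8 in untreated replicate 1 alone.

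KRT18, the partner of KRT8, was listed in fewer libraries than its neighbour. Its 5′ region, chr12:53342691-53342914, was listed in siMena11a replicate 1 alone, at a fold of 3.16 and 12 tags. The region at chr12:53339300-53339499 was listed in siControl replicate 1 alone, at a fold of 4.19 and 17 tags. KRT7, common in lung adenocarcinoma, had its 5′ region at chr12:52626751-52627231. The fold there was 3.77 in siMena11a replicate 1, and 5.6 and 4.24 in untreated replicates 1 and 2, from 15, 13 and 14 tags. No siMena or siControl library listed it.

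KRT19, the smallest keratin and a simple epithelial marker, had its 5′ region at chr17:39684575-39684818, listed in siMena11a replicate 1 alone at a fold of 5.03 and 16 tags. Between KRT19 and KRT15, the region chr17:39677961-39678514 was listed in 5 libraries. Its fold was 4.02 in siMena11a replicate 1, 4.05 in siMena replicate 1, 3.25 in siControl replicate 1, and 4.07 and 5.56 in untreated replicates 1 and 2, from 14 to 20 tags. The summits spanned 327 bp, with that of siControl at one end, so the folds were taken at different positions. Replicate 2 was the higher of the untreated libraries at this region. The neighbouring region chr17:39678598-39678971 was listed in siControl replicate 1 (fold 4.27) and untreated replicate 1 (fold 3.89) and in no other library. As both lie within 5 kb of KRT15 and of KRT19, the files do not tell which gene they belong to.

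KRT80 had the highest fold of the 6 genes listed at the 5′ end, in untreated replicate 1. At chr12:52585714-52586290 the fold was 7.73 in siMena11a replicate 1 (29 tags, 95% Poisson interval 19.4 to 41.6), 4.63 in siControl replicate 1 (19 tags, 11.4 to 29.7) and 9.46 in untreated replicate 1 (20 tags, 12.2 to 30.9). Divided by the genome-wide background of each library, the pileup was 32.9 in siMena11a, 20.3 in siControl and 37.2 in untreated replicate 1, and the local background 3.27, 3.55 and 2.27 in the same order. The siControl library thus had the lowest scaled pileup and the highest scaled local background of the 3. Its summit, at 52585807, stood apart from those of siMena11a (52586104) and untreated replicate 1 (52586127). The siControl fold was therefore taken at a different position of the region. Another region at the edge of the margin, chr12:52557751-52558084, was listed in the same 3 libraries at folds of 6.43, 5.8 and 6.25. A region inside the span, chr12:52580003-52580389, was listed in untreated replicate 1 alone, at 4.76 and 7 tags.

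Among the basal and stress keratins, KRT16 was listed most at its 5′ end. The region chr17:39769035-39769479 had a fold of 6.67 in siMena11a replicate 1, 5.49 in siControl replicate 1, and 6.63 and 3.68 in untreated replicates 1 and 2, from 21, 17, 10 and 11 tags. KRT14 had a region at chr17:39735856-39736067 in untreated replicate 1 alone, at a fold of 7.39 and 12 tags. KRT5, the partner of KRT14, had no listed region within 5 kb in any library. KRT17 had none within 5 kb either, but with a margin of 10 kb it took a region listed in 4 libraries, so the assignment of that signal depends on the margin.

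**Figure D2:**
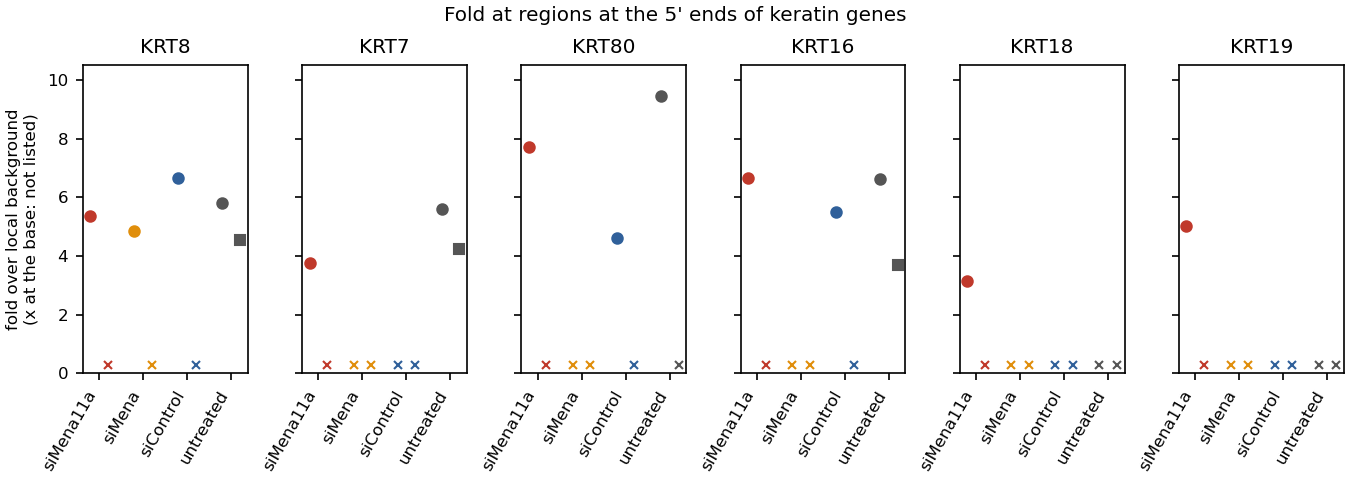
Fold (vertical axis, a ratio without unit) of the regions at the 5′ ends of KRT8, KRT7, KRT80, KRT16, KRT18 and KRT19 in siMena11a, siMena, siControl and untreated libraries; a circle is replicate 1, a square is replicate 2 and a cross is a library that did not list the region. KRT8 was listed in 5 libraries between 4.55 and 6.67, KRT80 reached 9.46 in untreated replicate 1, and KRT18 and KRT19 were listed in siMena11a replicate 1 alone.

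Away from the members, 2 regions were listed in 5 libraries and a further 2, tied at a median fold of 4.93, in 4 libraries. The region chr17:39620969-39621426, near KRT32, a type I hair keratin gene, had a fold of 7.84 in siMena11a replicate 1, 4.85 in siMena replicate 1, 5.83 in siControl replicate 1, and 5.85 and 5.04 in the untreated libraries. The region chr12:52674074-52675098, 1025 bp long and near KRT81, a type II hair keratin gene, had folds of 9.11 in siMena11a replicate 1, 4.6 in siMena replicate 1, 5.59 in siControl replicate 1, and 6.93 and 4.89 in the untreated libraries. One of the tied regions, chr12:52541040-52541575, lay near no keratin gene and had folds of 6.85 in siMena11a replicate 1, 4.53 in siControl replicate 1, and 5.33 and 4.26 in the untreated libraries. The other, chr17:39071523-39071859, also lay near no keratin gene, with folds of 8.26 in siMena11a replicate 1, 4.72 in siControl replicate 1, and 3.7 and 5.14 in the untreated libraries. Neither hair keratin gene had a region at its 5′ end, so these are values of a place and not of a promoter.

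**Figure D3:**
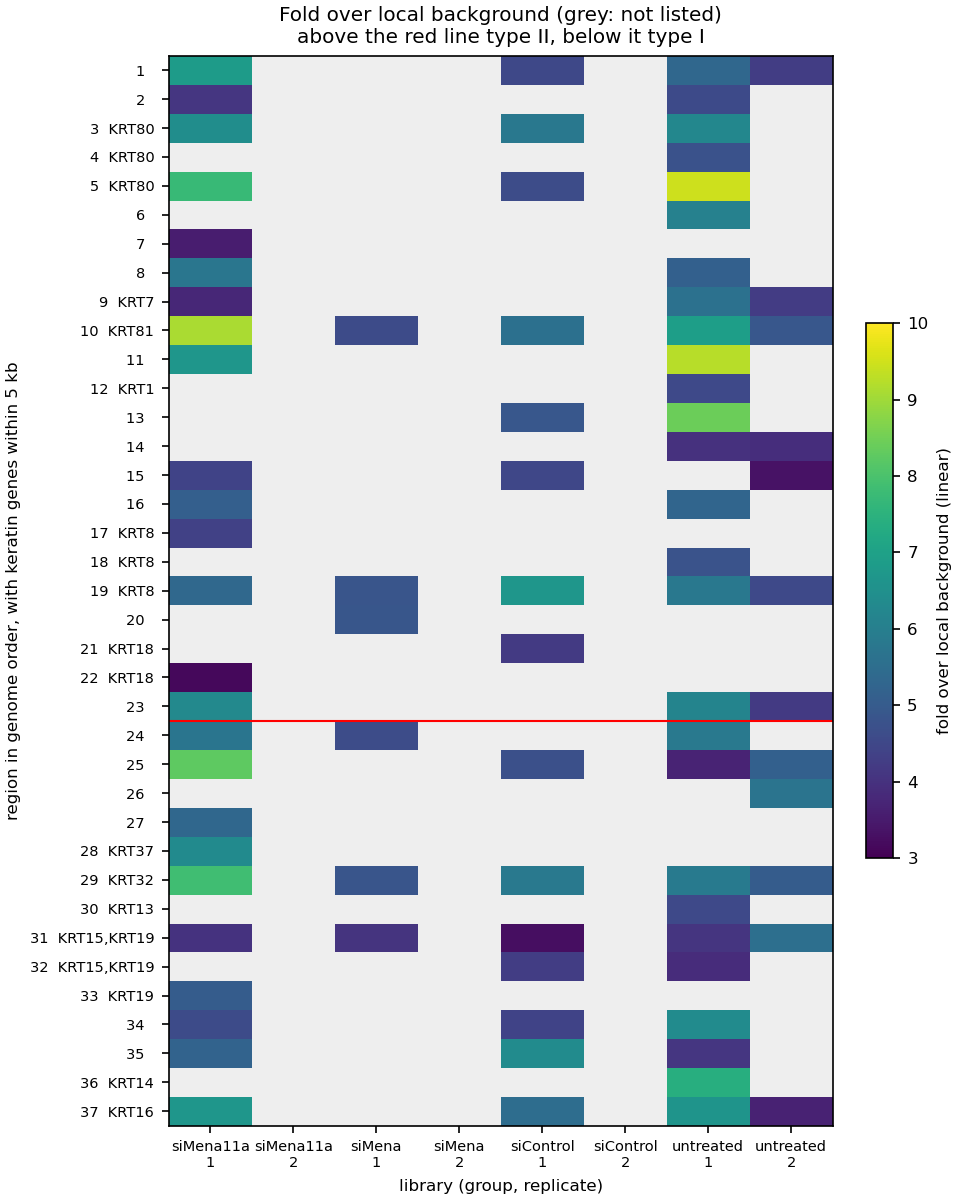
Fold of each of the 37 keratin regions (rows, in order along the type II and then the type I window) in the 8 libraries (columns, siMena11a, siMena, siControl and untreated, replicates 1 and 2); grey marks a region that the library did not list. The columns of replicate 2 of the 3 transfected groups are grey throughout, and no row is coloured in more than 5 columns.

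Keratin regions had low folds among the regions of their own lists. Their median fold was 5.37 in siMena11a replicate 1, against 6.62 for all regions; 4.74 against 6.11 in siMena replicate 1; and 4.72 against 6.49 in siControl replicate 1. It was 5.6 against 6.99 in untreated replicate 1, and 4.4 against 6.22 in untreated replicate 2. Of the 85 keratin listings, 73 had a fold below the median of their list. Fewer of the 37 regions were widely listed: 15 (40.5%) were listed in 3 libraries or more, against 52.8% of all regions, and 15 (40.5%) in 1 library, against 31.2%. None was listed in more than 5 libraries, whereas 5.02%, 3.18% and 1.16% of all regions were listed in 6, 7 and 8. Keratin regions had a median width of 337.0 bp, against 394.0 bp for all.

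The fold of a keratin region depends by its definition on both its pileup and the background around it. Over the regions near simple keratins, the local background was 3.61 times the genome-wide one in siMena11a replicate 1 (median), 3.45 times in siMena replicate 1, 4.35 times in siControl replicate 1, and 4.72 and 2.33 times in untreated replicates 1 and 2. For all regions the same medians were 2.18, 2.1, 2.1, 2.27 and 1.91. Near basal keratins they were 3.28, 3.72, 5.18, 4.55 and 2.31, but these include the regions between KRT15 and KRT19, also counted as simple. The KRT16 region had 2.61 in siMena11a replicate 1, 2.44 in siControl replicate 1, and 1.23 and 2.07 in untreated replicates 1 and 2. The KRT14 region had 1.41 in untreated replicate 1. At keratin regions with no member within 5 kb the medians in the 5 libraries were 1.71, 1.6, 1.86, 1.75 and 2.04. The summit pileup near simple keratins, over the genome-wide background, was 18.2, 20, 22.5, 35.3 and 12.9 in the same libraries, against 21.6, 20.7, 19.2, 27.9 and 16.5 for all regions. So near the simple keratins the pileups were below those of all regions in 3 of the 5 libraries and above them in 2, while the local background was above in all 5. Most keratin regions listed had no member within 5 kb, and for these the folds were low without a raised local background in 4 of the 5 libraries. Their median fold was 5.73 in siMena11a replicate 1, 4.75 in siMena replicate 1, 4.81 in siControl replicate 1, and 5.33 and 4.57 in untreated replicates 1 and 2. Their scaled pileups of 17, 13.1, 15, 18.6 and 11.5 lay below those of all regions in all 5. These medians are descriptions over few regions, and the part of the raised local background in the low folds was not tested.

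A region listed in replicate 1 was often missing from replicate 2 of the same group across the genome. In siMena11a cells 7.02% of all replicate 1 regions were also listed in replicate 2, in siMena cells 4.88%, in siControl cells 17.4% and in untreated cells 51.4%. Those also listed had the higher replicate 1 folds, with medians of 10, 8.5, 8.97 and 8.33, against 6.44, 6.03, 6.16 and 6.1 for the rest. Of the keratin regions, 0 of 25, 0 of 6, 0 of 15 and 10 of 27 were listed again in replicate 2 of those groups. The keratin medians in replicate 1 lay below the medians of the regions not listed again in all 4 groups.

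Silencing with siMena11a was set against siControl to ask which keratin regions change when the epithelial isoform of hMENA is targeted. A region was gained if both siMena11a libraries and neither siControl library listed it, and lost in the opposite case. Of the 28 keratin regions listed in any of these 4 libraries, 0 were gained and 0 were lost, against 0.0340% and 0.0680% of all 38226 regions. No keratin region could be called here, since both groups had a library that listed none. Between the replicate 1 libraries alone, 13 of 28 (46.4%) were listed in siMena11a only, against 29.9% of all regions, and 3 (10.7%) in siControl only, against 7.73%. The 5′ regions of KRT7, KRT18 and KRT19 were among the 13. These are also the gained count without siMena11a replicate 2 and the lost count without siControl replicate 2. The longer list of these 2 libraries was that of siMena11a, with 35472 against 27304 peaks.

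Over the 12 keratin regions that both replicate 1 libraries listed, the log2 ratio of folds, siMena11a over siControl, had a median of 0.293 and ran from -0.312 to 0.809. It was above 0 at 9 of 12 (75%), against a median of 0.129 and 65.5% above 0 over 23530 regions. The KRT8 5′ region had -0.31, the region between KRT15 and KRT19 0.30, the KRT16 region 0.28 and the KRT80 region 0.74. At the KRT80 region and that between KRT15 and KRT19, the summits spanned 320 and 327 bp over all libraries listing them. The siControl summit stood apart from that of siMena11a at both, so these ratios set different positions against each other. The same ratio between the untreated replicates, 1 over 2, ran from -0.473 to 0.848 over 10 keratin regions. All 12 ratios were smaller in size than 0.848, so none was larger than the largest difference between libraries of the same treatment. Here and in the comparisons below, ratios were not corrected for the median over all regions of their pair. That median was 0.329 between the untreated replicates.

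With the whole of ENAH targeted, siMena replicate 1 listed 6 keratin regions, against 15 in siControl replicate 1. Of the 17 keratin regions in these 4 libraries, 0 were gained and 0 were lost between siMena and siControl, against 0.00359% and 1.73% of all 27841 regions. Both counts were fixed at 0, because replicate 2 of siMena and of siControl listed no keratin region. Between the replicate 1 libraries, 2 of 17 (11.8%) were listed in siMena only, against 3.09% of all, and 11 (64.7%) in siControl only, against 48.3%. The 2 were chr12:53321213-53321419, and chr17:38984222-38984626, near no keratin gene. The 11 included the 5′ regions of KRT80 and KRT16. The siMena list held 14678 peaks against 27304, and the count of 11 is the lost count without siControl replicate 2, as the count of 2 is the gained count without siMena replicate 2. At the 4 regions both listed, the log2 ratio of folds, siMena over siControl, had a median of -0.273, against -0.288 over 13266 regions. KRT8 had -0.46 and the region between KRT15 and KRT19 had 0.32, both smaller in size than the largest ratio between the untreated replicates. In the region between KRT15 and KRT19 the summit lay at 39678229 in siMena and 39678432 in siControl, so that ratio sets different positions against each other.

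Transfection itself was read from siControl against untreated cells. Since siControl replicate 2 listed no keratin region, only losses could be called here, and the other 3 comparisons could give neither gains nor losses. Of 30 keratin regions, 0 were gained and 3 (10%) were lost, against 0.137% gained and 4.15% lost over all 40992 regions. The 3 were the KRT7 5′ region and chr12:53265052-53265331 and chr12:53365437-53366077 on the KRT8 and KRT18 side. The second of these had folds of 4.01 and 3.91 in the untreated libraries and was listed in no transfected library. The third had 6.3 in siMena11a replicate 1, and 6.15 and 4.2 in the untreated libraries, so it and the KRT7 region were also listed after transfection with siMena11a. The count was 10 without siControl replicate 1 and 14 without untreated replicate 2. With peaks of a score of at least 99 alone, it was fixed at 0, because untreated replicate 2 then listed no keratin region. It was also fixed at 0 when each list of this comparison was shortened to its 5231 best peaks, the length of the shortest. In untreated replicate 2 the best-placed keratin region stood at percentile 48.2 of the scores of 22424 peaks. The shortened list of that library therefore held no keratin region, and no loss could be called.

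Between the replicate 1 libraries, 2 of 29 keratin regions (6.9%) were listed in siControl only, against 8.73% of all regions, and 14 (48.3%) in untreated only, against 28.6%. Between the replicate 2 libraries, all 12 keratin regions were listed in untreated only, against 77.1% of all. That share of the keratin regions was fixed, because siControl replicate 2 listed none. The untreated lists were the longer ones in both cases. Over the 13 regions listed in both replicate 1 libraries, the log2 ratio of folds, siControl over untreated, had a median of -0.235, against -0.206 over 23212 regions, and was above 0 at 4 of 13 (30.8%), against 26.9%. KRT80 had the lowest, -1.03, which was larger in size than any of the 10 ratios between the untreated replicates. The other 12 were not. Untreated replicate 2 did not list the KRT80 region, so KRT80 is not among those 10. Its summits lay at 52585807 in siControl and 52586127 in untreated replicate 1, so the ratio sets different positions against each other. Over the genome-wide background of each library, the KRT80 pileup was 20.3 in siControl and 37.2 in untreated replicate 1, and the KRT80 local background was 3.55 against 2.27. KRT8 had 0.20, on the other side of 0.

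Set against siMena cells, siMena11a cells listed more keratin regions in replicate 1. Of 26 keratin regions, 0 were gained and 0 were lost between siMena11a and siMena, against 0.314% and 0.00840% of all 35715 regions. Here too both counts were fixed at 0 by the replicate 2 libraries, neither of which listed a keratin region. In replicate 1, 20 of 26 (76.9%) were listed in siMena11a only, against 60.1% of all, and 1 (3.85%) in siMena only, against 1.42%. The counts of 20 and 1 are also the gained count without siMena11a replicate 2 and the lost count without siMena replicate 2. The log2 ratio of folds, siMena11a over siMena, had a median of 0.305 over 5 shared regions, against 0.412 over 13610, and was above 0 at 4 of 5 (80%), against 88%. The region near KRT81 had the highest, 0.99, larger in size than those between the untreated replicates. Neither set was corrected for its median over all regions, 0.412 here and 0.329 between the untreated replicates. The KRT81 summits lay at 52674377 in siMena11a and 52674251 in siMena, so the ratio sets different positions against each other. Whether it exceeds the spread between replicates was not tested. These comparisons share libraries, so their values are given side by side and are not independent.

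**Figure D4:**
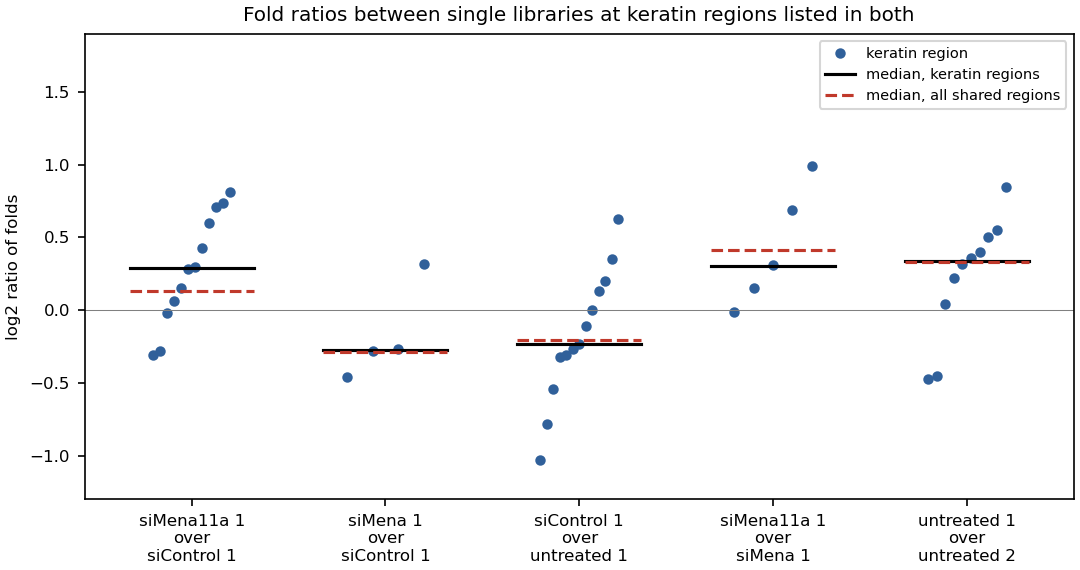
log2 ratio of folds at keratin regions listed in both of 2 single libraries (vertical axis), for siMena11a over siControl, siMena over siControl, siControl over untreated and siMena11a over siMena, each replicate 1 over replicate 1, and for untreated replicate 1 over untreated replicate 2; each point is a region, the black line is the keratin median and the red dashed line the median of all regions. The keratin medians of 0.293, -0.273, -0.235, 0.305 and 0.34 stand beside medians of all regions of 0.129, -0.288, -0.206, 0.412 and 0.329.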

How the data were processed

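ATAC-seq peak lists of 8 libraries were used, 1 list per library and not pooled. Per the submitters' processing notes, the peak caller was MACS2 2.2.5, and Bowtie2 2.3.4.2, SAMtools 1.7 and FastQC 0.11.5 were also named, with build hg19. Trimming, duplicate removal, the shift for the transposase and the caller's settings are not stated in the sources at hand. The score deposited by the authors is 10 times the −log10 q, rounded down. The fold deposited by the authors is the ratio of (summit tags + 1) to (local background + 1). Each peak's −log10 p and −log10 q are as deposited by the authors, and the lists end at a q of 0.01. An interval with several summits counted as 1 peak and carried the values of its strongest summit.

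Pileups and local backgrounds, for which no counts were used, were recovered from fold and −log10 p with the Poisson formula, and 100.0% of rows in each list came back to within 0.001 of their −log10 p. The code for the recovery and the calls was checked on simulated data made by the same formula and from exact copies of regions. That check does not cover noise, shifted peak edges or lists of unequal length. The lowest local background of a list is its genome-wide background and stands for depth; intervals cover counting error only, and tags may include duplicates.

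Genes were assigned with approximate hg19 spans in whole kb set by hand, since no hg19 annotation was used here. Their order matched the RefSeq GRCh38.p14 table for 26 of 26 neighbours in each window, and the spacing of 3′ ends agreed within 2 kb for 26 of 27 type II genes (all but KRT7) and 27 of 27 type I genes. The regions named were, for each member, the region within 5 kb listed in most libraries (ties by median fold), every region gained or lost where these were 10 or fewer, and the 3 outside members listed in most libraries (4 are given, for a tie); regions named beyond these were chosen after their values were seen. The members and lists were chosen with earlier results of these data known. Planned exact permutation tests of log2 fold over 4 libraries gave no value, since no keratin region was listed in all 4 libraries of a comparison. Alternatives were the score, the overlap, the margin, shortened lists, 500 bp bins and leaving out each library. The software was Python 3.11.15 with SciPy 1.17.1, pandas 2.3.3, matplotlib 3.10.9 and numpy 2.4.6.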

Additional observations from a re-analysis of the deposited data

How the results depend on the processing

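The lost count of siControl against untreated (3) was fixed at 0 at a score of at least 99, where untreated replicate 2 listed no keratin region. It was likewise fixed at 0 with the lists of that comparison shortened to 5231 peaks, which left no keratin region in untreated replicate 2. In 500 bp bins it was 6. With the stricter score, listing fell to 0 libraries for KRT7, KRT18, KRT15, KRT19 and KRT14, 2 for KRT8 and 1 for KRT16, and regions to 1 each at simple and basal keratins. With no margin it was 0 libraries for KRT18, KRT15, KRT14 and KRT16 and 1 for KRT19, with 3 simple and 0 basal regions. The spans are approximate, and the 5′ regions of KRT18 and KRT16 were dropped although they lay within 1 kb of the 5′ end. With a margin of 10 kb, KRT17 had 4 libraries. KRT80 had 2 libraries at the stricter score and 3 at the other settings, and KRT5 had 0 throughout. The stricter score left 9 of the 37 regions. A peak cover of 50% left all 37, but the listings fell. They went from 25 to 23 in siMena11a replicate 1, 6 to 3 in siMena replicate 1 and 15 to 12 in siControl replicate 1. They went from 12 to 9 in untreated replicate 2 and stayed at 27 in untreated replicate 1. KRT8 and KRT15 then had 4 libraries each and KRT7 had 2.

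Leaving out 1 library at a time gave 0 to 13 gained and 0 to 3 lost for siMena11a against siControl, 0 to 2 gained and 0 to 11 lost for siMena against siControl, 0 to 1 gained and 3 to 14 lost for siControl against untreated, and 0 to 20 gained and 0 to 1 lost for siMena11a against siMena. Simple keratin regions numbered 6 to 9 and basal ones 3 to 4. The causes were not tested, beyond the fewer peaks that a stricter score, shorter lists or a left-out library leave by construction. No paired analysis was possible because replicate numbers do not tie a library of one group to a library of another. Other settings of the fold tests were not run, because no keratin region was listed in all 4 libraries of a comparison. Pileups of 5 to 36 tags limit what can be listed.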

Other observations

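Among the 18 regions near no keratin gene, further ones stood at the edges of the sparse stretches. The region chr12:52721338-52721646, at the edge of the 344.5 kb stretch that spans KRT5, had folds of 6.67 in siMena11a replicate 1 and 9.26 in untreated replicate 1. The region chr12:53253916-53254207, at the other edge of the sparse middle of the type II cluster, had 4.91 in siControl replicate 1 and 8.44 in untreated replicate 1. The region chr17:39222464-39222718, the only one among the keratin-associated protein genes, was listed in untreated replicate 2 alone, at 5.69. Between KRT19 and KRT14, chr17:39705131-39705527 had folds of 5.24 in siMena11a replicate 1, 6.38 in siControl replicate 1 and 4.12 in untreated replicate 1.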
